A study of Mus musculus with 12 samples.

Results

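Calcineurin is a phosphatase that calcium switches on, and the genes described here are 7 parts of its circuit: the inhibitors Rcan1 and Rcan2, the catalytic subunits Ppp3ca and Ppp3cb, the regulatory subunit Ppp3r1, and the transcription factors Nfatc1 and Nfatc3, which calcineurin activates. They were chosen by name, as every probe set of the array whose annotation gave only that gene, out of 12335 genes with a probe set of their own. Rcan1 is among them because its rise after caerulein was already known from these arrays, so its caerulein values are a description and carry no test. The other genes, and the further gene lists below, were also chosen with earlier results of these data known, and their p-values carry that limit. The 7 genes had 15 probe sets, and 14 of these, with at least 1 for each gene, were bright enough to be tested.

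The study measured whole pancreas from 4 groups of male mice aged 2 to 4 months, with 3 pancreata and 3 arrays in each. The groups were Mist1KO mice given caerulein, Mist1KO mice given saline, wild type C57BL6 mice given caerulein and wild type C57BL6 mice given saline. All mice received hourly injections over 4 hours and were killed at the end of that time. The sources used here do not state the strain background of the Mist1KO mice, the cells in which Mist1 is deleted or the dose of caerulein. Mist1, encoded by Bhlha15, is a transcription factor of secretory cells such as the enzyme-making acinar cells, and caerulein is an analogue of the hormone cholecystokinin that drives acinar secretion and is used at high doses to induce acute pancreatitis in mice.

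In an acinar cell, cholecystokinin receptors release calcium from the endoplasmic reticulum. Calcium-loaded calmodulin then activates calcineurin, which strips phosphate from NFAT proteins so that they enter the nucleus. NFAT in turn drives the short, inducible form of Rcan1, which binds calcineurin and inhibits it, closing a negative feedback loop. Kinases such as Gsk3b oppose calcineurin by phosphorylating NFAT again. In the pancreas, calcineurin has been linked to the harmful activation of digestive enzymes during caerulein pancreatitis.

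The signal of an array probe set is a brightness with no absolute scale, so levels are compared between arrays for 1 probe set and never between probe sets. Changes are differences of log2(signal + 18.7) ± SE with n = 3 arrays per group, and folds are on that scale. A change passed when its p-value from limma, adjusted by the Benjamini-Hochberg method over 15716 probe sets, was under 0.05. Bhlha15 itself (1449233_at) was dim on all Mist1KO arrays, at 38.3 to 79.4 after caerulein and 89.9 to 106.8 after saline, against 729.5 to 838.5 in wild type after caerulein and 1601 to 1624.3 in wild type after saline; where its probes lie relative to the deletion is not stated. Arrays had near equal trimmed means, from 151.08 to 151.37, but the hybridisation spikes, which no tissue makes, were dimmest on the Mist1KO caerulein arrays (280.5 to 362.1, against 555.8 to 1054 over the other groups). On Mist1KO caerulein replicate 3 the response of Rcan1 was the smallest of the group, and the values of Rcan1, Rcan3 and the Nfatc1 interaction are also given without that array.

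Rcan1 has 2 promoters, and the sequence before each of its annotated starts is shown because one carries matches to the NFAT core motif and the other does not. The starts lie 66091 bases apart on the minus strand of chromosome 16 (GRCm38.p6, sequences from RefSeq). The internal start begins the short transcript, the first start the long one. Capitals mark GGAAA, the NFAT core, read on either strand, in the 250 bases before each start.
Rcan1 internal start, chr16:92400079-92400328, minus strand: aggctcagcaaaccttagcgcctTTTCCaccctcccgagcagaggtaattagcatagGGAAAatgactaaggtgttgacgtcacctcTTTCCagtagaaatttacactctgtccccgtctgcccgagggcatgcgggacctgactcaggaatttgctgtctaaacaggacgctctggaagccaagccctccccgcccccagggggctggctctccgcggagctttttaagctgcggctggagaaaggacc
Rcan1 first start, chr16:92466170-92466419, minus strand: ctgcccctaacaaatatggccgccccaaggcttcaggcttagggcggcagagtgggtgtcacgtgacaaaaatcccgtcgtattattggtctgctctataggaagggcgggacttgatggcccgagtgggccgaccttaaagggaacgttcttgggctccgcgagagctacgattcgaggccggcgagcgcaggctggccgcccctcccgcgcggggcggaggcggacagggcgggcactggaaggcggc

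The internal window held 3 NFAT cores, beginning 227, 193 and 163 bases before the start. It also held 1 match to TGANTCA, the site bound by AP-1, a common partner of NFAT, at 110 bases, and 1 to TGACGTCA, the CRE bound by CREB-type factors, at 175 bases. Both strands were searched and no match overlapped another. The window before the first start held none of the 3 motifs. Among 32851 mouse promoter windows of the same length, 55.6% held at least 1 NFAT core and 6.39% at least 3, while 6.75% held TGANTCA and 1.55% held TGACGTCA. All 3 motifs together occurred in 10 windows, or 0.0304%.

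Windows were found for 5 of the 7 genes, 9 in all. Ppp3cb had 3 NFAT cores in its only window, Rcan2 had 2 before 1 of its 3 starts and 1 AP-1 match before another, Nfatc3 had 1 before 1 of its 2 starts, and Ppp3r1 had none. A match is a run of letters and not a shown binding site. The sources used here do not state which of the Rcan1 starts the array's probes read.

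**Figure D1:**
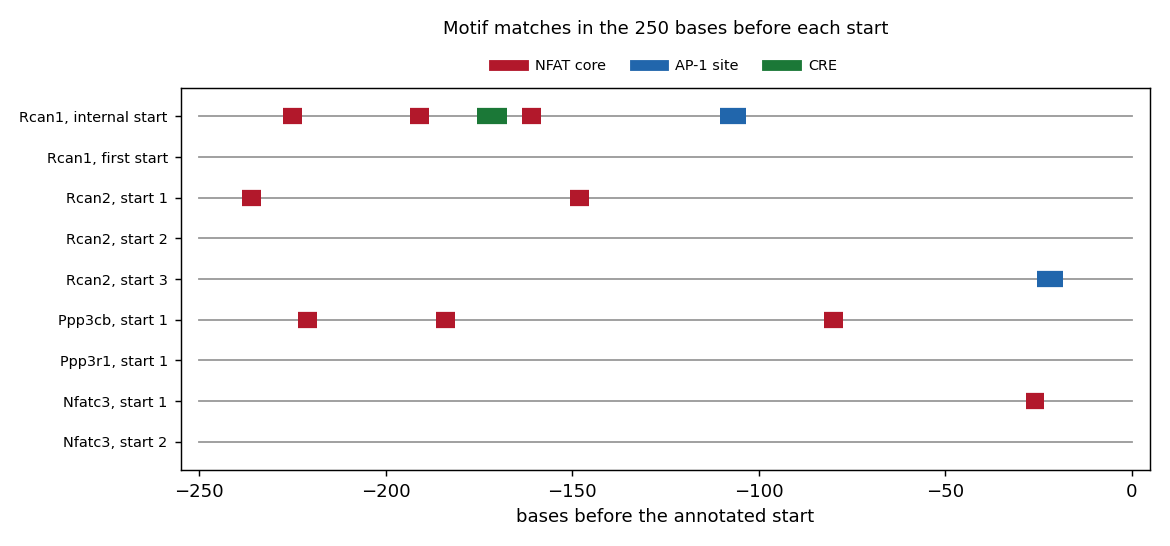
Matches to the NFAT core, the AP-1 site and the CRE (coloured blocks) in the 250 bases before each annotated start of the 5 genes with a promoter sequence. The x axis gives bases before the start, and each row is a start; the internal start of Rcan1 is the only row here with all 3 motifs, and its first start has none.

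Rcan1 was the gene with the highest fold of all 15716 probe sets after caerulein in wild type pancreas, and it was among the highest in Mist1KO pancreas. With the brightest probe set (1416600_a_at) the signal was 4011, 3704.1 and 1649.8 in Mist1KO caerulein, against 124.2, 22.0 and 16.7 in Mist1KO saline. In wild type it was 7527, 8839.9 and 10164.8 after caerulein, against 21.9, 203.9 and 14.9 after saline. Every caerulein array lay far above every saline array. Among the saline arrays, Mist1KO saline replicate 1 and wild type saline replicate 2 were brighter than the rest of their groups.

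The change of this Rcan1 probe set was 5.63 ± 0.63 in Mist1KO (49.5-fold, rank 3 among the rises of all probe sets) and 7.03 ± 0.63 in wild type (131-fold, rank 1). Since the saline signals of most arrays were near the offset of 18.7, these sizes depend on it: with an offset of 1 the changes of Rcan1 were 6.29 in Mist1KO and 7.70 in wild type, and with an offset of 50 they were 4.97 in Mist1KO and 6.38 in wild type. Without Mist1KO saline replicate 1 the Mist1KO change was 6.27, and without wild type saline replicate 2 the wild type change of Rcan1 was 7.90. Without Mist1KO caerulein replicate 3 the Mist1KO change of Rcan1 was 6.04. The ratio of mean signals, with no offset, was 57.5 in Mist1KO and 110 in wild type.

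The further Rcan1 probe set (1416601_a_at) gave the same order. Its signal was 1953.7, 1846.5 and 622.6 in Mist1KO caerulein, against 90.6, 55.1 and 85.5 in Mist1KO saline. In wild type it was 4049.6, 5486.1 and 5256.1 after caerulein, against 109.1, 231.0 and 79.0 after saline. The caerulein and saline arrays were far apart in each genotype, with changes of 3.82 ± 0.39 in Mist1KO (14.1-fold, rank 15) and 5.07 ± 0.39 in wild type (33.6-fold, rank 4). Without Mist1KO caerulein replicate 3 the Mist1KO change of this Rcan1 probe set was 4.35.

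Between genotypes after caerulein, all 3 Mist1KO arrays of both Rcan1 probe sets lay below all 3 wild type arrays. These values too are given without a test. For 1416601_a_at the difference was -1.88 ± 0.39, and -1.36 without Mist1KO caerulein replicate 3. For 1416600_a_at the difference was -1.59 ± 0.63, with the mean signal in Mist1KO at 0.353 of that in wild type, and -1.18 without Mist1KO caerulein replicate 3. After saline the genotypes overlapped in both probe sets, at -0.19 (adjusted p = 0.876) and -0.63 (adjusted p = 0.309). The order of Rcan1 levels was thus wild type caerulein, Mist1KO caerulein, and then the saline groups, which overlapped. The response in Mist1KO minus that in wild type was -1.40 ± 0.89 for 1416600_a_at and -1.25 ± 0.55 for 1416601_a_at, given without a test. Single arrays moved these Rcan1 values: leaving out Mist1KO saline replicate 1 gave -0.76 for 1416600_a_at and leaving out wild type saline replicate 2 gave -2.27, while for 1416601_a_at the ends of the range were -0.72, without Mist1KO caerulein replicate 3, and -1.64, without wild type saline replicate 2.

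**Figure D2:**
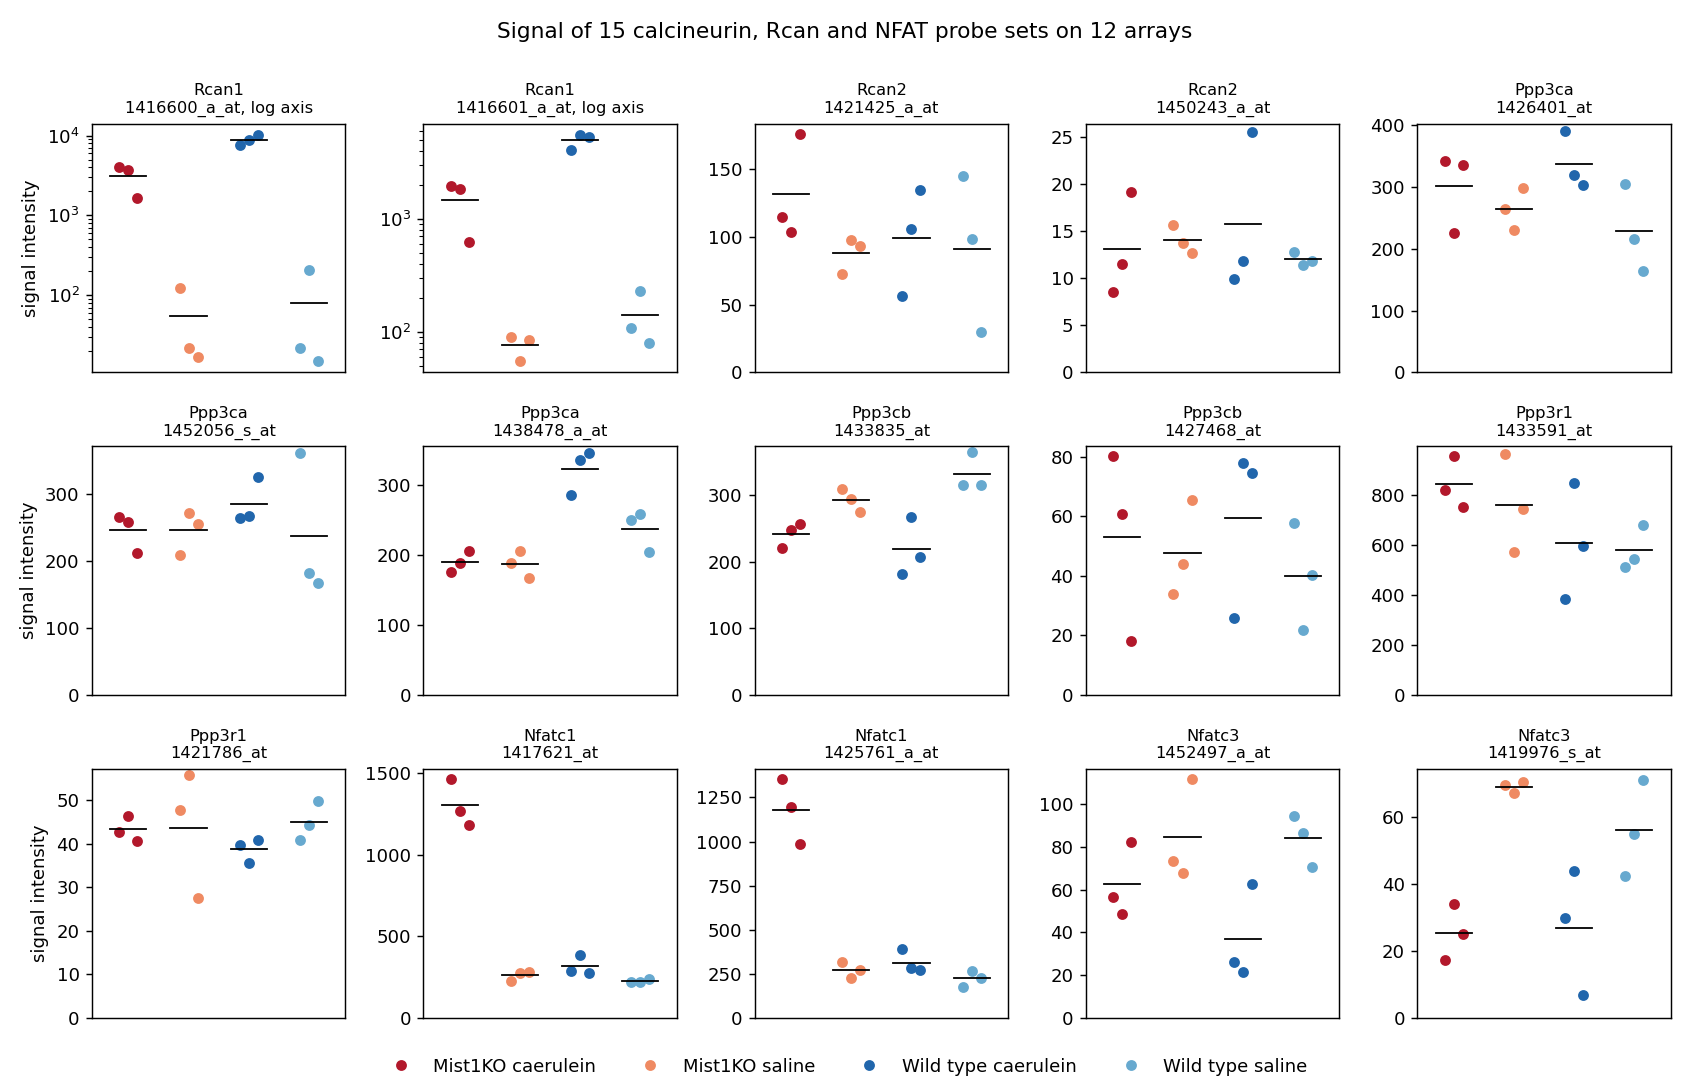
Signal intensity of the 15 probe sets (y axes, linear from 0 except the Rcan1 panels, which are on a log axis) on the 12 arrays; each point is an array and each bar the mean of 3. Both Rcan1 panels are high in both caerulein groups, both Nfatc1 panels are high only in Mist1KO caerulein (988 to 1462.5, against 387.6 or less on every other array), and the panels of the calcineurin subunits mostly overlap between groups.

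Rcan2, a related calcineurin inhibitor, showed no change that passed. Its brighter probe set (1421425_a_at) had a signal of 114.5, 103.6 and 176.2 in Mist1KO caerulein, against 72.6, 97.9 and 93.4 in Mist1KO saline, and these groups did not overlap (0.47 ± 0.38, limma adjusted p = 0.415). In wild type the arrays after caerulein, at 56.4, 105.9 and 134.9, overlapped those after saline, at 144.9, 98.1 and 30.1. The dimmer probe set of Rcan2 (1450243_a_at) lay at 8.6 to 25.6 on all arrays and below the filter in every group.

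Rcan3, the remaining family member, which was not among the 7 genes, rose with caerulein in each genotype. Its signal (1434027_at) was 211.8, 208.5 and 135.7 in Mist1KO caerulein, against 99.4, 95.7 and 118.6 in Mist1KO saline, and 324.2, 303.2 and 298.9 in wild type caerulein, against 133.5, 126.5 and 142.8 in wild type saline. Caerulein arrays lay above saline arrays in each genotype, and the Mist1KO caerulein arrays below the wild type ones. After saline, too, the Mist1KO arrays lay below the wild type ones, a difference that did not pass. The changes of Rcan3 were 0.71 ± 0.17 with caerulein in Mist1KO (limma adjusted p = 0.00729), 1.10 ± 0.17 with caerulein in wild type (adjusted p = 0.000439) and -0.71 ± 0.17 for Mist1KO against wild type after caerulein (adjusted p = 0.00938). The caerulein responses of Rcan3 in the 2 genotypes differed by -0.39 ± 0.24, which did not pass (adjusted p = 0.452). Without Mist1KO caerulein replicate 3 the Rcan3 change with caerulein in Mist1KO was 0.90 (adjusted p = 0.000882), and that between genotypes after caerulein was -0.52 (adjusted p = 0.0339).

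Of the 7 probe sets of the calcineurin subunits Ppp3ca, Ppp3cb and Ppp3r1, none passed with caerulein in Mist1KO, where 24% of all probe sets did. In wild type 1 passed, where 18.9% of all did, and between the genotypes after caerulein 1 passed, where 20.2% of all did.

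Ppp3ca encodes the alpha catalytic subunit. With 1438478_a_at its signal was 175.2, 188.6 and 205.5 in Mist1KO caerulein, against 285.8, 335.5 and 346.3 in wild type caerulein, with no overlap and a change of -0.71 ± 0.14 (limma adjusted p = 0.00319). After saline the same probe set read 188.0, 205.1 and 166.8 in Mist1KO, against 250.2, 258.6 and 203.9 in wild type, which overlapped (-0.32 ± 0.14, adjusted p = 0.162). Within wild type the caerulein arrays of Ppp3ca lay above the saline arrays by 0.42 ± 0.14, which did not pass (adjusted p = 0.0575). It passed with each array centred on its median (0.55, adjusted p = 0.0186) and under 3 other alternatives.

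The other Ppp3ca probe sets did not show the genotype difference after caerulein. With 1426401_at the signal was 343.2, 225.5 and 336.1 in Mist1KO caerulein, against 391.5, 319.3 and 302.9 in wild type caerulein (-0.17 ± 0.21, limma adjusted p = 0.618). Its saline values were 263.9, 231.1 and 298.6 in Mist1KO and 305.7, 216.2 and 164.1 in wild type, and its change with caerulein in wild type was 0.56 ± 0.21 (adjusted p = 0.081). With 1452056_s_at the Ppp3ca signal was 265.3, 258.4 and 211.6 in Mist1KO caerulein, against 263.3, 267.1 and 325.1 in wild type caerulein, and no comparison passed. Without wild type saline replicate 1 the Ppp3ca change with caerulein in wild type passed for both, at 0.78 (adjusted p = 0.0222) and 0.65 (adjusted p = 0.0202). The call between genotypes rested on 1 of 3 probe sets.

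Ppp3cb, the beta catalytic subunit, fell with caerulein in wild type. Its brighter probe set (1433835_at) read 181.4, 267.8 and 207.6 in wild type caerulein, against 315.2, 364.3 and 314.9 in wild type saline, a change of -0.57 ± 0.15 (limma adjusted p = 0.0142). In Mist1KO it read 220.3, 247.5 and 256.5 after caerulein, against 309.8, 294.9 and 275.0 after saline, also without overlap, but the change of -0.26 ± 0.15 did not pass (adjusted p = 0.224). The Ppp3cb responses in the 2 genotypes differed by 0.31 ± 0.21 (adjusted p = 0.504). The wild type call ended with each array centred on its median (adjusted p = 0.0675), when the 2 groups were fitted alone (adjusted p = 0.0594) and without wild type caerulein replicate 1 (-0.46, adjusted p = 0.053). The dimmer Ppp3cb probe set (1427468_at), at 18.1 to 80.3, passed in no comparison.

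Ppp3r1, the calcium-binding regulatory subunit, passed in no comparison. Its brighter probe set (1433591_at) read 821.2, 957.9 and 754.9 in Mist1KO caerulein, 967.1, 574.1 and 746.8 in Mist1KO saline, 384.8, 848.7 and 595.9 in wild type caerulein and 511.1, 545.4 and 681.7 in wild type saline. All of these groups overlapped except Mist1KO caerulein, which lay above wild type saline, a pair that was not compared. Without wild type caerulein replicate 2, Ppp3r1 was higher in Mist1KO than in wild type after caerulein (0.79, adjusted p = 0.0334), against 0.52 ± 0.24 with all arrays (adjusted p = 0.15). The dimmer Ppp3r1 probe set (1421786_at) lay at 27.5 to 55.8.

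Nfatc1, an NFAT factor best known from T cells, osteoclasts and heart valve formation, rose with caerulein in Mist1KO pancreas, and its response there exceeded that in wild type. With 1417621_at the signal was 1462.5, 1270.1 and 1180.8 in Mist1KO caerulein, against 223.6, 276.9 and 281.6 in Mist1KO saline. In wild type it was 284.8, 385.0 and 274.8 after caerulein, against 218.3, 221.8 and 235.0 after saline. The 3 Mist1KO caerulein arrays stood far above the other 9, while the remaining groups lay close together. Among these, the wild type caerulein arrays lay above the wild type saline arrays without overlap.

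The Nfatc1 change with caerulein was 2.24 ± 0.15 in Mist1KO (4.74-fold, limma adjusted p = 2.30e-07) and 0.44 ± 0.15 in wild type, which did not pass (adjusted p = 0.0518). The difference of those responses, tested as the interaction of genotype and injection, was 1.81 ± 0.21 (limma adjusted p = 0.000748). Nfatc1 was chosen with earlier results of these data known, so its p-values are not those of a gene picked without that knowledge. After caerulein Nfatc1 was higher in Mist1KO than in wild type by 2.00 ± 0.15 (adjusted p = 1.04e-06), and after saline the genotypes overlapped (0.19 ± 0.15, adjusted p = 0.421). Without Mist1KO caerulein replicate 3 the Nfatc1 interaction was 1.88 (adjusted p = 0.00153). The wild type change passed under 4 alternatives, among them each array centred on its median (0.57, adjusted p = 0.0188).

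The further Nfatc1 probe set (1425761_a_at) showed the same pattern. Its signal was 1352.9, 1198.2 and 988.0 in Mist1KO caerulein, against 313.8, 225.4 and 270.2 in Mist1KO saline, and 387.6, 282.3 and 269.4 in wild type caerulein, against 176.2, 267.1 and 227.0 in wild type saline. Only the Mist1KO caerulein arrays stood apart from all others. The wild type caerulein arrays again lay above the wild type saline arrays, here by a narrow gap (269.4 against 267.1). The changes of Nfatc1 were 2.05 ± 0.19 with caerulein in Mist1KO (4.15-fold, limma adjusted p = 3.37e-06), 0.45 ± 0.19 with caerulein in wild type (adjusted p = 0.106) and 1.60 ± 0.26 for the interaction (adjusted p = 0.00537). The wild type change of this probe set passed under 1 alternative (adjusted p = 0.045).

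The pancreas was measured whole, so fewer cells of a type and less RNA per cell cannot be told apart. Of 6 acinar markers on the array none was listed at 0, and their summed signal was 33722 to 50748 in Mist1KO caerulein, 59355 to 69348 in Mist1KO saline, 68527 to 91626 in wild type caerulein and 78568 to 100646 in wild type saline. For Mist1KO, 5 of the 6 acinar markers fell with caerulein and none rose, and 4 of 6 were lower in Mist1KO than in wild type after caerulein. In wild type 1 of the 6 acinar markers fell with caerulein and none rose. For this and the marker counts below, 24% of all probe sets passed with caerulein in Mist1KO (10.5% higher, 13.4% lower). In wild type 18.9% of all passed (9.19% higher, 9.74% lower), and between genotypes after caerulein 20.2% did (10% higher, 10.2% lower). Of T and B lymphocyte markers, 3 of the 7 on the array passed the filter. The sum of the 7 was 447 to 511 in Mist1KO caerulein, 450 to 716 in Mist1KO saline, 351 to 421 in wild type caerulein and 390 to 487 in wild type saline. After caerulein the Mist1KO sums thus lay above the wild type ones, though none of the 3 markers tested passed there. After saline the T cell marker Cd3e was higher in Mist1KO than in wild type (2.07 ± 0.43, limma adjusted p = 0.00822). The other 2 tested, Cd79a (-0.51 ± 0.19, limma adjusted p = 0.0914) and Ms4a1 (-0.55 ± 0.25, adjusted p = 0.164), went the other way. Neither passed after saline, where 12.6% of all probe sets did. The markers Cd3g, Cd3d and Cd2 were below the filter. With caerulein Cd79a fell in wild type (-0.68 ± 0.19, limma adjusted p = 0.0217), and none of the 3 tested passed in Mist1KO. The endothelial sum was 392 to 486 in Mist1KO caerulein, 457 to 531 in Mist1KO saline, 500 to 699 in wild type caerulein and 682 to 801 in wild type saline, and the myeloid sums of all groups lay between 774 and 1397. Of 5 endothelial markers tested, 1 fell with caerulein in each genotype and none rose. Between genotypes 1 of these was lower in Mist1KO after caerulein and 2 after saline, and none was higher. Of 6 myeloid markers tested, 1 fell with caerulein in wild type, and no other myeloid comparison passed. The duct sum was 2113 to 2228 in Mist1KO caerulein, 1383 to 1622 in Mist1KO saline, 1832 to 2265 in wild type caerulein and 2138 to 2524 in wild type saline. Of 3 duct markers tested, 1 rose and none fell with caerulein in Mist1KO, and 1 rose and 1 fell in wild type. Between genotypes 1 duct marker was higher in Mist1KO after caerulein and 1 was lower after saline. Krt19, a keratin of duct cells, rose by 3.50 ± 0.21 in Mist1KO and by 1.89 ± 0.21 in wild type (limma adjusted p = 1.39e-07 and 3.54e-05), and its responses differed by 1.62 ± 0.30 (adjusted p = 0.0113). Muc1, an epithelial mucin, had a change of -0.22 ± 0.14 in Mist1KO (adjusted p = 0.295) and fell by 0.49 ± 0.14 in wild type (adjusted p = 0.0268), and Sox9, a transcription factor of duct cells, passed in neither. The islet sum was 9574 to 10824 in Mist1KO caerulein, 12927 to 14379 in Mist1KO saline, 11012 to 16157 in wild type caerulein and 13500 to 14258 in wild type saline, and of 5 islet markers tested 1 fell with caerulein in Mist1KO and 2 were lower in Mist1KO than in wild type after caerulein. The fibroblast and stellate cell sum was 1076 to 1233 in Mist1KO caerulein, 1641 to 2435 in Mist1KO saline, 1106 to 1539 in wild type caerulein and 1459 to 1973 in wild type saline, and of 4 such markers tested 2 fell with caerulein in Mist1KO and 1 was lower in Mist1KO than in wild type after caerulein. The muscle sums of all groups lay between 458 and 682, and those of neuron and Schwann cell markers between 32 and 106. Of 3 muscle markers tested, 1 was higher and 1 lower in Mist1KO than in wild type after caerulein, and 1 was lower after saline. The part of these shifts, and of the dim hybridisation spikes of the Mist1KO caerulein arrays, in the Nfatc1 result was not tested.

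Nfatc3, a broadly expressed NFAT factor, was dim, and its probe sets reached the filter, a mean log2 of 5.76, through some of the groups only. The mean of 1452497_a_at was below it in wild type caerulein (5.72), and that of 1419976_s_at in both caerulein groups (5.45 in Mist1KO and 5.41 in wild type) but not in the saline groups (6.45 in Mist1KO and 6.21 in wild type). Their differences are therefore given as values, and no direction rests on their p-values. With 1452497_a_at the signal was 25.9, 21.5 and 62.7 in wild type caerulein, against 94.6, 86.7 and 70.8 in wild type saline (-0.96 ± 0.29, limma adjusted p = 0.0332, and 0.0559 with no filter). In Mist1KO the same probe set read 56.4, 48.5 and 82.4 after caerulein, against 73.4, 68.0 and 112.0 after saline, which missed the threshold (-0.34 ± 0.29, adjusted p = 0.436). With 1419976_s_at the Nfatc3 signal was 17.4, 34.0 and 24.9 in Mist1KO caerulein, against 69.5, 67 and 70.3 in Mist1KO saline (-1.01 ± 0.33, adjusted p = 0.0373, and 0.0478 with no filter). In wild type it read 29.7, 43.7 and 6.9 after caerulein, against 42.4, 54.9 and 71.1 after saline (-0.79 ± 0.33, adjusted p = 0.109). Several arrays lay under the filter level as a signal, 35.4, and the calls ended under 8 alternatives for 1452497_a_at in wild type (adjusted p up to 0.118) and under 9 for 1419976_s_at in Mist1KO (adjusted p up to 0.134). The first of these calls ended without any of wild type saline replicates 1 and 2 or wild type caerulein replicates 1 and 2, the other without any single one of the 6 Mist1KO arrays. Without wild type caerulein replicate 2 the wild type change of 1419976_s_at was -1.07 (adjusted p = 0.0494). Without wild type caerulein replicate 3 the value of 1452497_a_at for Mist1KO minus wild type after caerulein was 0.92 (adjusted p = 0.0375). These too are given as values only. Neither Nfatc3 interaction passed.

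**Figure D3:**
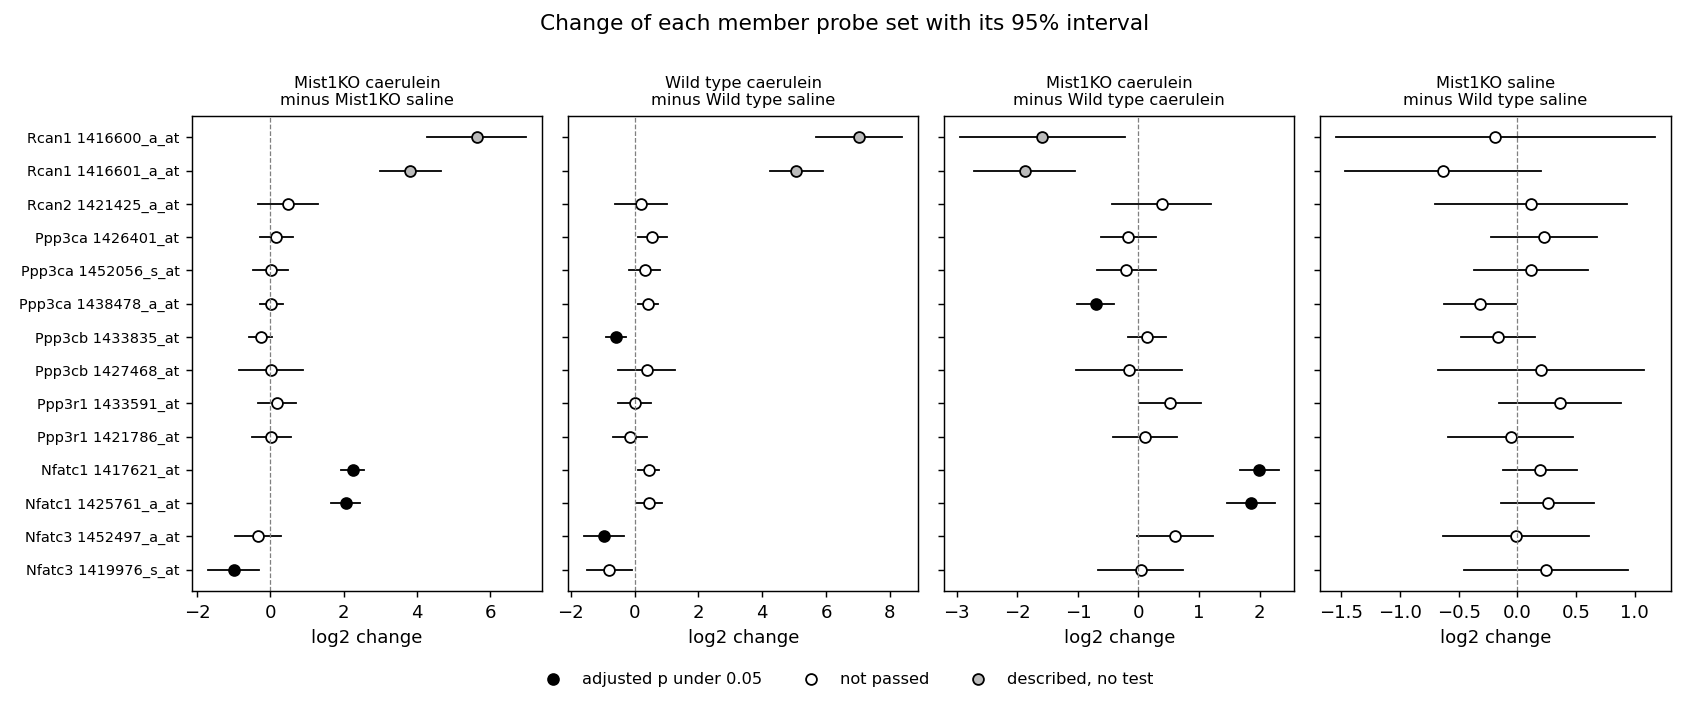
Log2 change of the 14 tested probe sets (rows) in 4 comparisons (panels), with 95% intervals; black points passed, white points did not, and grey points are Rcan1 values given without a test. Nfatc1 stands out among the tested points, with 2.24 and 2.05 for caerulein in Mist1KO and 2.00 and 1.86 for Mist1KO against wild type after caerulein.

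Counted over the probe sets, 3 of 12 passed with caerulein in Mist1KO (2 higher, both of Nfatc1, and 1 lower, of Nfatc3), where 24% of all probe sets did, 10.5% higher and 13.4% lower. In wild type 2 of 12 passed (none higher, 2 lower, of Ppp3cb and Nfatc3), where the share of all was 18.9%, 9.19% higher and 9.74% lower. The Nfatc3 calls in these counts are of dim probe sets that were below the filter level where they were lower. Between genotypes after caerulein 3 of 12 passed (2 higher, both of Nfatc1, and 1 lower, of Ppp3ca), where 20.2% of all passed, 10% higher and 10.2% lower. Between genotypes after saline limma called 0 of 14, with 1 at an unadjusted p under 0.05 (Ppp3ca), where 12.6% of all passed, 6.84% higher and 5.74% lower. In the interaction 2 of 12 passed, both of Nfatc1 and so not independent of each other, where 3.3% of all passed, 1.51% higher and 1.78% lower. The groups did not overlap in 5 of 12 for caerulein in Mist1KO (background 43.4%), in 6 of 12 for caerulein in wild type (33.8%), in 3 of 12 between genotypes after caerulein (38.1%) and in 1 of 14 after saline (33.1%). Rcan1 is counted after saline only. As shares the calls, those of Nfatc3 included, came to 25% with caerulein in Mist1KO, 16.7% in wild type and 25% between genotypes after caerulein, each near its background. With the Nfatc3 calls set aside, only those of Nfatc1 remained with caerulein in Mist1KO and only that of Ppp3cb in wild type. The median change over the 12 tested probe sets was 0.02 with caerulein in Mist1KO and 0.27 in wild type, beside -0.13 and -0.14 over all probe sets.

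Among other genes of calcineurin and NFAT, 13 of 24 listed could be tested. With caerulein in Mist1KO 2 rose and 2 fell, where 24% of all probe sets passed, and in wild type 2 rose and 1 fell, where 18.9% of all passed. Besides Rcan3, the gene that rose in each genotype was Fkbp1a, which encodes FKBP12, the protein through which the drug tacrolimus blocks calcineurin. Its signal was 1704.7, 1909.9 and 1454.6 in Mist1KO caerulein, against 1120.1, 867.1 and 895.4 in Mist1KO saline (0.80 ± 0.16, limma adjusted p = 0.00185), and 1325.7, 1394.9 and 1208.2 in wild type caerulein, against 579.8, 650.1 and 861.5 in wild type saline (0.91 ± 0.16, adjusted p = 0.001).

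Homer2, a scaffold protein that competes with calcineurin for NFAT, fell with caerulein in Mist1KO. It read 210.4, 175.5 and 184.7 in Mist1KO caerulein, against 367.4, 420.0 and 416.4 in Mist1KO saline (-1.01 ± 0.14, limma adjusted p = 0.000147), and 362.1, 418.3 and 524.3 in wild type caerulein, against 501.3, 441.8 and 467.9 in wild type saline. Its responses differed between genotypes by -0.89 ± 0.20 (adjusted p = 0.0281). Nfat5, the NFAT relative that responds to salt and not to calcineurin, fell in Mist1KO (-0.71 ± 0.14, adjusted p = 0.00178) and had a change of -0.40 ± 0.14 in wild type (adjusted p = 0.0574), responses that differed by -0.31 ± 0.19 (adjusted p = 0.462).

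Nfatc4, a further calcineurin-dependent NFAT factor, was lower in Mist1KO than in wild type after caerulein (-0.80 ± 0.23, limma adjusted p = 0.0261). Nfatc2, the form prominent in T cells, passed in no comparison, nor did Ppp3cc, the catalytic subunit prominent in testis. Tfeb, a lysosomal transcription factor that calcineurin dephosphorylates, fell with caerulein in wild type (-1.24 ± 0.37, adjusted p = 0.032) and was lower in Mist1KO than in wild type after saline (-1.23 ± 0.37, adjusted p = 0.0454). Myoz1, a calcineurin-binding protein of muscle, was also lower in Mist1KO after saline (-0.71 ± 0.22, adjusted p = 0.0493). The calls of Nfatc4, Tfeb and Myoz1 ended under 5 to 13 alternatives each.

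Of 12 kinases tested that act on NFAT or Rcan1, 1 rose and 1 fell with caerulein in Mist1KO (24% of all probe sets passed), and 2 rose and 1 fell in wild type (18.9% of all). Gsk3b, which phosphorylates NFAT for export from the nucleus, rose in each genotype. Its signal was 159.1, 166.4 and 151.6 in Mist1KO caerulein, against 84.9, 105.1 and 97.1 in Mist1KO saline (0.64 ± 0.19, limma adjusted p = 0.0234), and 152.3, 97.4 and 138.9 in wild type caerulein, against 73.2, 91.4 and 63.2 in wild type saline (0.64 ± 0.19, adjusted p = 0.0288). Csnk1e, a casein kinase, rose in wild type (0.66 ± 0.20, adjusted p = 0.0314), and Dyrk1b, of a family that primes NFAT for Gsk3, fell there (-0.83 ± 0.25, adjusted p = 0.0302). These Gsk3b, Csnk1e and Dyrk1b calls ended under 4 to 7 alternatives each.

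After caerulein, 3 of the 12 kinases were lower in Mist1KO than in wild type and 1 was higher, where 20.2% of all probe sets passed. Mapk14, the stress kinase p38 alpha, read 134.1, 136.6 and 169.7 in Mist1KO caerulein, against 290.5, 276.9 and 297.1 in wild type caerulein (-0.90 ± 0.15, limma adjusted p = 0.000894). Pim1, a survival kinase, was lower by -1.05 ± 0.22 (adjusted p = 0.00405) and Csnk1e by -0.69 ± 0.20 (adjusted p = 0.0245). The Pim1 arrays of Mist1KO lay below those of wild type after saline too (75.5 to 100.6 against 115.5 to 163.4), which did not pass. The Pim1 interaction of genotype and injection did not pass either. Csnk1d, another casein kinase, was higher in Mist1KO after caerulein, at 1052.9, 907.6 and 990.1, against 488.8, 482.2 and 510.8 in wild type caerulein (0.97 ± 0.11, adjusted p = 6.12e-05), and also after saline (0.43 ± 0.11, adjusted p = 0.0242), a call that ended under 6 alternatives; that of Csnk1e ended under 3.

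Of 11 genes tested upstream of calcineurin, in calcium release and entry, 1 rose and 1 fell with caerulein in Mist1KO (24% of all probe sets passed), and 1 rose and 2 fell in wild type (18.9% of all). Cckar, the cholecystokinin receptor through which caerulein acts, fell in each genotype. Its signal was 1162.5, 1166.2 and 1774.4 in Mist1KO caerulein, against 4111.5, 3648.6 and 3584.9 in Mist1KO saline (-1.48 ± 0.16, limma adjusted p = 1.54e-05), and 613.4, 735.8 and 812.0 in wild type caerulein, against 2633.3, 3085.1 and 3005.3 in wild type saline (-1.99 ± 0.16, adjusted p = 1.88e-06). After caerulein Cckar was higher in Mist1KO than in wild type (0.89 ± 0.16, adjusted p = 0.00156). The Mist1KO arrays of Cckar lay above the wild type ones after saline too, a difference that did not pass. The Cckar interaction of genotype and injection did not pass either.

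Orai1, the pore of the store-operated calcium channel, rose with caerulein in Mist1KO. It read 415.9, 379.4 and 335.8 in Mist1KO caerulein, against 192.1, 187.2 and 186.1 in Mist1KO saline (0.93 ± 0.13, limma adjusted p = 0.000166), and 158.7, 161.3 and 182.5 in wild type caerulein, against 227.9, 232.7 and 194.7 in wild type saline, a change that did not pass. The Orai1 responses differed between the genotypes by 1.28 ± 0.19 (adjusted p = 0.00369). Atp2a2, the pump that returns calcium to the endoplasmic reticulum, rose in wild type (0.69 ± 0.17, adjusted p = 0.0114), and Gna11, a G protein that couples receptors to phospholipase C, fell there (-0.48 ± 0.13, adjusted p = 0.022), calls that ended under 2 and 5 alternatives.

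Of 13 genes tested that are known as NFAT targets in other cells, such as lymphocytes and heart muscle, none passed with caerulein in Mist1KO (24% of all probe sets did) and 2 rose in wild type (18.9% of all passed). Myc, a growth transcription factor, read 198.3, 197.0 and 246.7 in Mist1KO caerulein, against 375.8, 271.1 and 274.0 in Mist1KO saline, and 339.2, 540.9 and 454.7 in wild type caerulein, against 225.1, 191.6 and 129.2 in wild type saline. Its wild type change was 1.21 ± 0.21 (limma adjusted p = 0.0011), and the responses differed between genotypes by -1.69 ± 0.30 (adjusted p = 0.00774). Myc was lower in Mist1KO than in wild type after caerulein (-0.98 ± 0.21, adjusted p = 0.00495) and higher after saline (0.71 ± 0.21, adjusted p = 0.0411), and the saline call ended under 12 alternatives. Nr4a1, an orphan nuclear receptor and early response gene, rose in wild type (1.12 ± 0.30, adjusted p = 0.0198), a call that ended under 3 alternatives. The T cell targets Il4, Cd40lg and Fasl passed in no comparison.

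**Figure D4:**
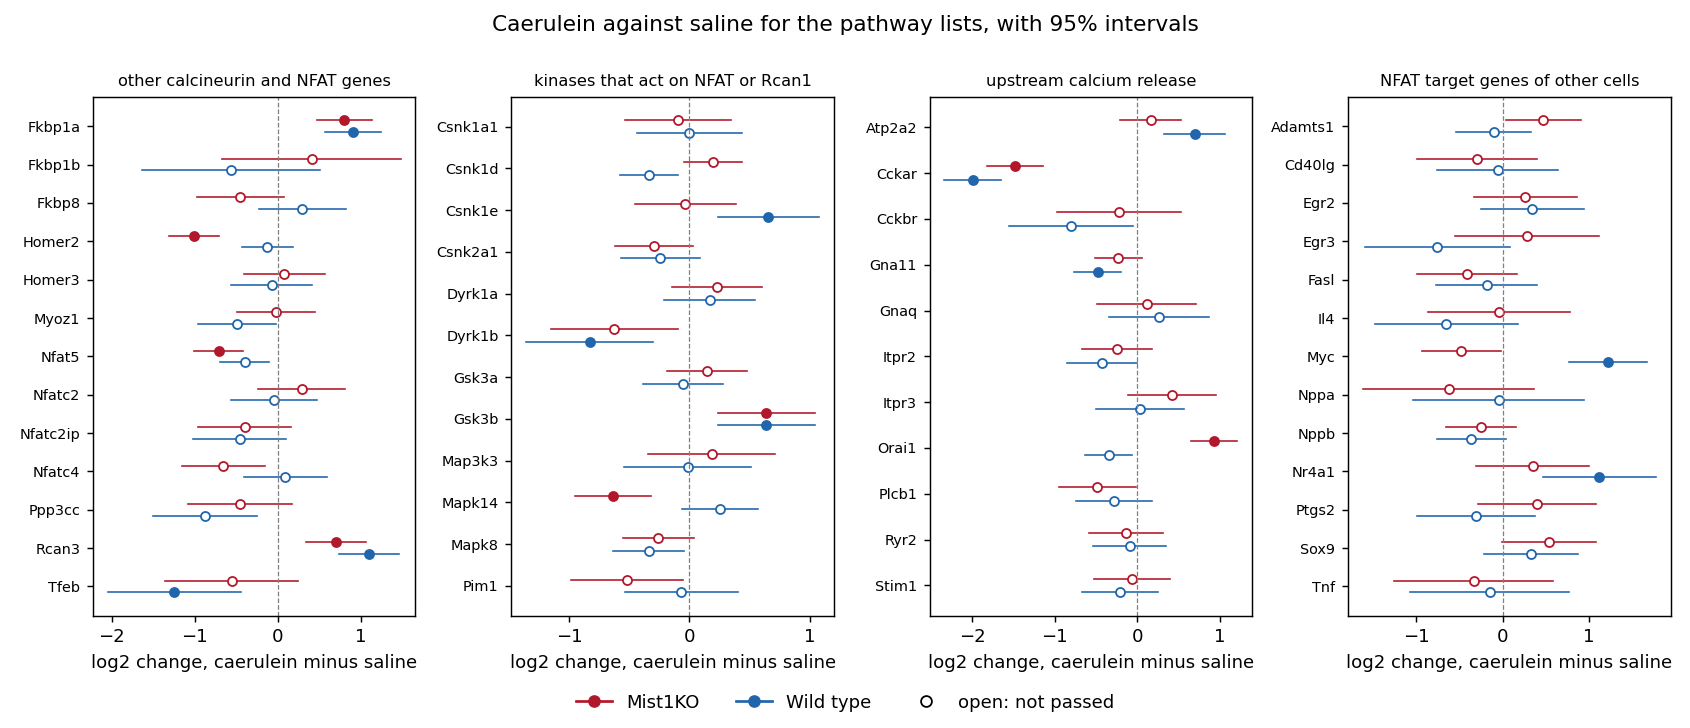
Log2 change with caerulein (x axes, with 95% intervals) of the tested genes of the 4 lists, for Mist1KO (red) and wild type (blue); filled points passed and open points did not. Rcan3, Fkbp1a and Gsk3b are filled above 0 in both genotypes and Cckar below 0 in both, while Nfat5, Orai1, Homer2 and Mapk14 are filled for Mist1KO alone.

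The median change of each list with caerulein, over the genes tested, was -0.40 in Mist1KO and -0.12 in wild type for the other calcineurin and NFAT genes, -0.06 and -0.03 in the same order for the kinases, -0.14 and -0.28 for calcium release, and -0.04 and -0.11 for the NFAT targets. Over all genes it was -0.14 in Mist1KO and -0.16 in wild type.

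The genes whose signals followed Rcan1 (1416600_a_at) most closely over the 12 arrays were Sft2d2 (Pearson r = 0.979), Krt8 (0.978), Fbxw11 (0.977), Gars (0.974) and Dsp (0.973), given as a description over arrays that share 4 groups. Krt8, a keratin of simple epithelia, averaged 8876 in Mist1KO caerulein, 1253 in Mist1KO saline, 12615 in wild type caerulein and 1234 in wild type saline. Dsp, the desmosome protein desmoplakin, averaged 1850 in Mist1KO caerulein, 402.1 in Mist1KO saline, 2335 in wild type caerulein and 341.8 in wild type saline. All 5 had their highest mean in wild type caerulein and the next in Mist1KO caerulein, as Rcan1 did. That order is largely set by picking them for their likeness to Rcan1 and is not a separate result. For Rcan2 the highest correlations were with Mnt (0.853), Gps2 (0.817), Igf2os (0.808), Tnfaip3 (0.797) and Proc (0.793).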

How the data were processed

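RNA from 12 whole pancreata, about 10 µg each per the labels, was measured on 12 Affymetrix mouse arrays. The authors deposited linear intensities, with a value for every probe set on every array. The sources used here do not state the summarising software, the scaling target or detection calls, so signal over background is unknown and the precision is limited by how many arrays there are. Of 22516 probe sets, 64 were controls, 20240 had a single gene symbol, 682 several and 1530 none; a probe set shared by Ppp3r1 and another gene (signal 0.7 to 34.0) was left out. Before taking log2, 18.7, which is the 20th percentile of the table, was added. Probe sets with a mean log2 at or below the 30th percentile were left out, which left 15716; of the 15 probe sets of the 7 genes, 12 lay above that level in all 4 groups, and the Nfatc3 ones in 3 and 2 groups.

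Means of the 4 groups were fitted in 1 model (limma 3.58.1 under R 4.3.3; lmFit, eBayes with intensity trend; 8 residual and 5.75 prior degrees of freedom), with two-sided tests and Benjamini-Hochberg adjustment over all probe sets. The script was tested on simulated data. Groups and replicate numbers came from the sample titles, and the series' design text calls the pancreata biological replicates. The 7 genes and the gene lists were chosen with earlier results of these data known. Named by rule were all 7 genes, and from 4 lists the genes past the threshold whose groups did not overlap, at most 4 per list and comparison by size; list genes were read with their brightest probe set. Nfatc2, Ppp3cc, Il4, Cd40lg, Fasl, the lymphocyte markers Cd3e, Cd3g, Cd3d, Cd2, Cd79a and Ms4a1, and Krt19, Muc1 and Sox9 were named after their values were seen. Likeness was ranked by Pearson's r on log2 values. Alternatives were other offsets, filters, scalings, eBayes without trend, the groups compared alone, a replicate block, and leaving out each array. Promoter sequences came from RefSeq (GRCm38.p6); 9 windows matched 5 genes. Figures used matplotlib 3.10.9.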

Additional observations from a re-analysis of the deposited data

Results flagged for a closer look

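In 6 cases the caerulein responses of the genotypes differed by a test of the difference itself, the interaction of genotype and injection in limma. These came from 12 tested probe sets of the circuit's genes, where 2 passed, and from lists of 13, 12, 11 and 13 tested genes. In each list 1 gene passed, and of all probe sets 3.3% did. The Nfatc1 cases are of 1 gene and so not independent of each other. Krt19, a duct marker outside this tally, passed too (1.62, adjusted p = 0.0113). The circuit's genes and the lists were chosen with earlier results of these data known, and their p-values carry that limit. Both Nfatc1 probe sets had a larger response in Mist1KO, by 1.81 (1417621_at, adjusted p = 0.000748) and 1.60 (1425761_a_at, adjusted p = 0.00537), and all 3 Mist1KO caerulein arrays lay above all 9 others in each. For Orai1 the difference was 1.28 (adjusted p = 0.00369), with a rise in Mist1KO and a wild type change that did not pass. For Myc it was -1.69 (adjusted p = 0.00774), with a rise in wild type and a Mist1KO change that did not pass. For Mapk14 it was -0.89 (adjusted p = 0.0357) and for Homer2 -0.89 (adjusted p = 0.0281); both fell in Mist1KO and had wild type changes that did not pass. The calls of Mapk14 and Homer2 ended under 11 and 9 alternatives, and those of Nfatc1, Orai1 and Myc under none of the 20 run.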

How the results depend on the processing

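Of 10 calls among the 7 genes, those of Ppp3cb and Nfatc3 with caerulein ended under 3 to 9 alternatives and the others under none run. Of the 206 values of the 10 under alternatives, 186 still passed and none turned direction. The Nfatc3 calls in this tally are of dim probe sets that were below the filter level where they were lower. The count of 2 probe sets called with caerulein in wild type became 1 with no filter on low values, 4 with each array centred on its median and 0 with the 2 groups compared alone (adjusted p at least 0.0594 for Ppp3cb), and ranged from 1 to 3 with 1 array left out, at 1 without wild type saline replicate 2 and without wild type caerulein replicate 1. The 2 calls were both lower, whereas with each array centred on its median Nfatc1 and Ppp3ca passed as higher and Ppp3cb no longer passed. The counts for caerulein in Mist1KO (3), for the genotypes after caerulein (3) and after saline (0) and for the interaction (2) stayed within 2 to 3, 3 to 4, 0 and 2. With a replicate block the counts were 3 for caerulein in Mist1KO, 2 for caerulein in wild type, 3 and 0 between genotypes after caerulein and saline, and 2 for the interaction. No pairing by replicate number was seen: deviations of same-numbered arrays correlated by -0.104 to 0.0452 (18 pairs), and those of differently numbered arrays by -0.0566 to 0.0935 (36 pairs). Only 2 of 12 arrays matched their own number best. With 3 arrays per group these values cannot exclude that the numbers pair the arrays. Over all probe sets, leaving out 1 array lowered the 1977 calls between genotypes after saline to as few as 1063 and the 518 of the interaction to as few as 271. Centring on the median moved the median change of all probe sets to -0.01 for caerulein in each genotype, from -0.13 in Mist1KO and -0.14 in wild type. The share of higher calls was then 59.7% (43.9% as deposited) for caerulein in Mist1KO, 67.8% (48.5%) in wild type, 61.7% (49.7%) between genotypes after caerulein and 71.5% (54.4%) after saline.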
